A study of Papilio machaon with 10 samples.

Results

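The egg-and-larva genes of the swallowtail butterfly Papilio machaon are a set of 150 genes. Their RNA was higher in the egg and in all 5 larval instars (L1 to L5) than in pupae and adults of both sexes. They were taken from a table of 15285 genes, in which expression is given as RPKM, which scales the reads on a gene by its length and by the size of its library. A gene was eligible when its highest RPKM was at least 10, which held for 11856 genes. Its 10 values of log2(RPKM + 1) were then sorted, and the widest gap between neighbouring values had to be at least 1 (2-fold), with exactly the egg and L1 to L5 above it. This was so for 222 genes, or 1.87% of those eligible, and the 150 with the widest gaps were kept. All 10 values of each gene chose the members, so the contrast of egg and larvae with pupae and adults is described below and was not tested.

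The data comprise 10 whole-body libraries of poly-A RNA, with no treatment named in the labels: 1 of eggs, 1 of each instar L1 to L5, and 1 of each sex for pupae and for adults. Per the methods, larvae of this species were fed fennel or carrot, several eggs, L1 or L2 larvae were pooled within a library, and each later library was made from a single individual. There were no replicates, and the sex of eggs and larvae was not given. In whole bodies, fewer cells of a type and less RNA per cell cannot be told apart. The reads behind the RPKM values were worked out from the steps between values, and the reads summed over genes lay between 23239554 (L5) and 35985078 (L2) per library.

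Butterflies undergo complete metamorphosis. The embryo forms a first instar larva within the egg shell, the larva feeds, grows and moults through its instars, and in the pupa most larval tissues are broken down or remodelled into those of the adult. Larval life is known for its gut enzymes, for detoxification of plant compounds and for a cuticle that differs from that of later stages. The table lists genes by locus tags alone, and neither the table nor the reference gene list pairs these tags with gene names (0 tags matched), so no function is given to any member and no marker of a tissue could be checked. Sequences of the members were not used here.

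By their medians, the 150 genes were strongly expressed before metamorphosis. Their median level was 119 RPKM for the egg, 292 for L1, 77.0 for L2, 118 for L3, 133 for L4 and 154 for L5. It was 0.192 RPKM for the female pupa, 0.452 for the male pupa, 0.166 for the female adult and 0.778 for the male adult. Over the 13984 genes with a mean of at least 1 RPKM, which include all 150 members, the medians of the same libraries lay between 6.90 and 13.7 RPKM. The lowest value of a member in the egg or any larva was 4.30 RPKM, and 37 members had at least 100 RPKM in all 6 of these libraries. At least 1000 RPKM in some library was reached by 53 members. The shares of all genes at these limits are not given. The highest value of a gene had a median of 432 RPKM for the members. It was 46.4 RPKM for those of the 13984 genes that reached 10 RPKM. Keeping the widest gaps favoured genes with high values, so this difference was partly built into the choice of members.

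**Figure D1:**
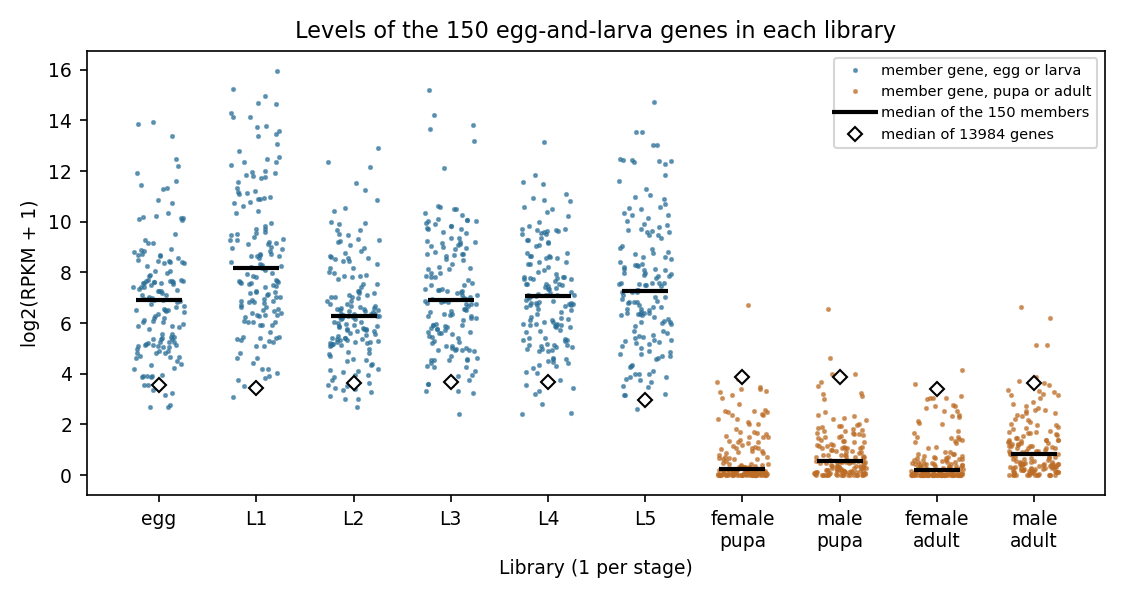
Levels of the 150 members in each library, as log2(RPKM + 1), with 1 point per gene, a bar for their median and a diamond for the median of 13984 genes. The medians of the members lie between 6.28 and 8.19 in egg and larvae, and at most at 0.83 in pupae and adults.

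The widest gap belonged to RR48_05552, at 8.96 on the log2 scale. It had 3941 RPKM for the egg, 26367 for L1, 2981 for L2, 4506 for L3, 9102 for L4 and 11846 for L5, and 1.86 for the female pupa, 2.33 for the male pupa, 0.250 for the female adult and 4.99 for the male adult. Its lowest egg or larval value was thus 597 times its highest pupal or adult value. RR48_06606 followed with a gap of 8.71. It had 613 RPKM for the egg, 5977 for L1, 971 for L2, 1070 for L3, 809 for L4 and 1649 for L5. It had 1 read for the female pupa (0.0587 RPKM), 8 for the male pupa (0.463 RPKM), 0 for the female adult and 3 for the male adult (0.230 RPKM). Both genes were highest in L1, and their values in the other 5 egg and larval libraries lay within a few fold of each other.

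Across members the median gap was 3.71 on the log2 scale, and 65 members had a gap of at least 4. At the edge of the list stood RR48_09681, the last member, with a gap of 2.158. It had 33.9 RPKM for the egg, 37.8 for L1, 26.8 for L2, 22.6 for L3, 30.9 for L4 and 12.6 for L5, against 1.10 for the female pupa, 2.04 for the male pupa, 0.539 for the female adult and 0.467 for the male adult. The first gene left out, RR48_11106, had a gap of 2.129 and between 8.37 and 30.5 RPKM in egg and larvae, with 1.14 RPKM for the female pupa as its highest later value.

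The members differed widely in abundance. RR48_01257 had the highest mean over egg and larvae. Its values were 14997 RPKM for the egg, 31853 for L1, 5234 for L2, 37358 for L3, 2185 for L4 and 27480 for L5, and between 3.86 and 12.1 in pupae and adults. RR48_15013 was second, with 15781 RPKM for the egg, 39232 for L1, 440 for L2, 18950 for L3, 1451 for L4 and 5273 for L5, and at most 4.35 RPKM later. Both were low in L2 and L4 and high in egg, L1 and L3, with a fold range over these 6 libraries of 17.1 for RR48_01257 and 89.1 for RR48_15013.

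In all, the 150 genes made up 6.45% of the summed RPKM of the egg, 25.0% for L1, 3.31% for L2, 9.65% for L3, 4.29% for L4 and 11.3% for L5. Among the later libraries their share was lowest in the female adult, at 0.0115%, and highest in the male adult, at 0.0392%. The 5 members with the highest mean took 10.2% of L1 on their own, and the other members took 14.8%. The same 5 took 2.99% of the egg, 0.626% of L2, 5.18% of L3, 1.15% of L4 and 4.21% of L5. Counted as reads on genes, the share of the members in L1 was 20.0%, and in the other egg and larval libraries 3.02% to 9.14%. L1 stood apart from the other 5 libraries by either measure.

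**Figure D2:**
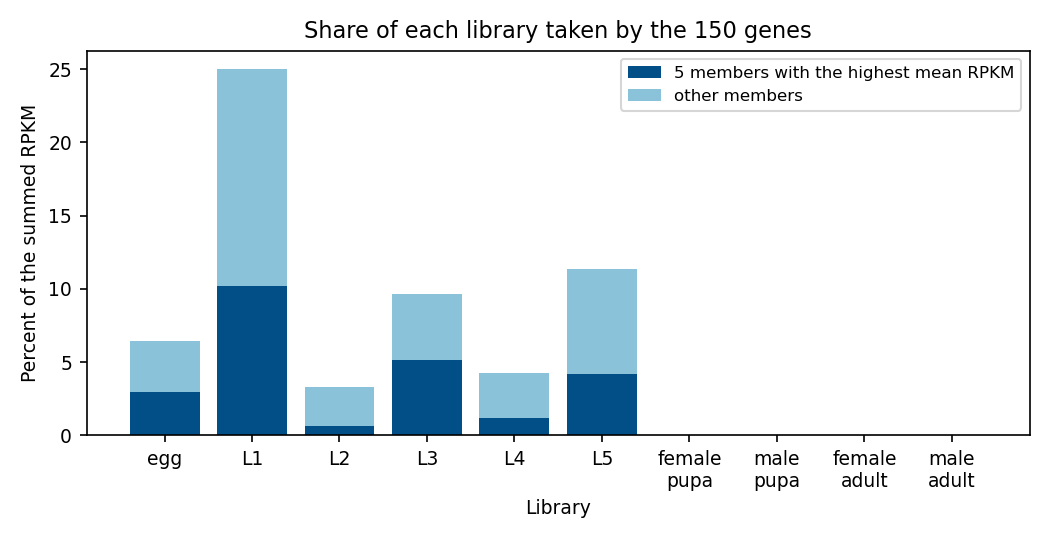
Share of the summed RPKM of each library taken by the 150 members, in percent, split into the 5 members with the highest mean over egg and larvae and the other members. L1 is the highest bar at 25.0%, and all 4 pupal and adult bars are under 0.04%.

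Within egg and larvae, the rule kept every gap between neighbouring values no wider than the gap to pupae and adults. This limited how far apart the 6 values could lie, yet the members were not evenly expressed. The highest of the 6 values exceeded the lowest by a median of 10.3-fold, and no member stayed within 2-fold, while 21 stayed within 4-fold. A range of at least 100-fold was found in 6 members. For the genes tested that had reads in each library, the median range was 3.95-fold, with quartiles of 2.43 and 10.2. The shares of the genes tested at the limits used for the members are not given, so those counts describe the members alone. The widest was that of RR48_14380, which had 36.6 RPKM for the egg and 10688 for L1, followed by 1006 for L2, 368 for L3, 615 for L4 and 114 for L5, a range of 292-fold. The narrowest, chosen after its values were seen, was that of RR48_08348, with 8.07 RPKM for the egg, 13.3 for L1, 7.75 for L2, 16.4 for L3, 12.7 for L4 and 10.1 for L5.

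L1 was the main peak. It was the highest library of 83 members, against 9 for the egg, 6 for L2, 17 each for L3 and L4, and 18 for L5. Among all 13984 genes tested, L1 was the highest of these 6 libraries in 10.4%, the egg in 20.2%, L2 in 19.6%, L3 in 16.9%, L4 in 26.3% and L5 in 6.6%. The lowest of the 6 libraries was L2 in 50 members (14.5% of genes tested) and the egg in 29 (16.9%). It was L3 in 23 members (4.91%), L4 in 23 (7.99%) and L1 in 6 (14%). L5 was the lowest in 19 members, against 41.6% of the genes tested. The 83 members highest in L1 had a median of 679 RPKM there, and of 195 for the egg, 84.9 for L2, 137 for L3, 148 for L4 and 190 for L5. The 17 members highest in L3 had a median of 542 RPKM for L3, and of 71.2 to 172 in the other egg and larval libraries.

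**Figure D3:**
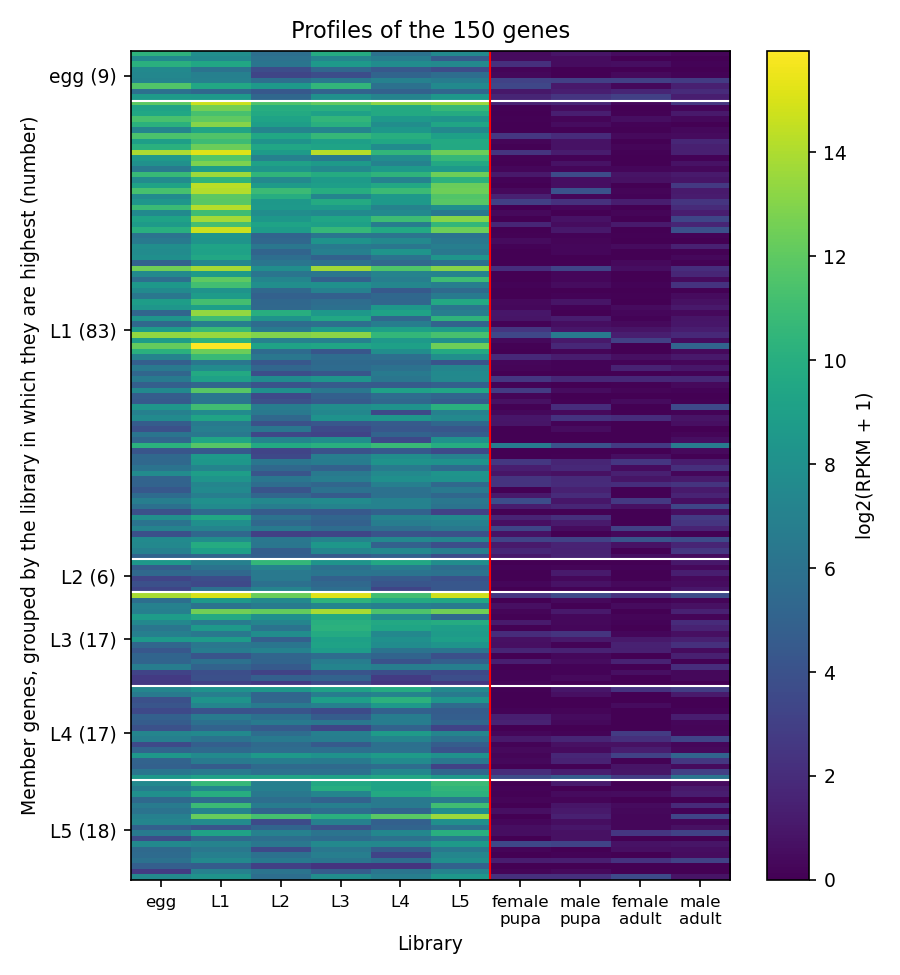
Heat map of the 150 members (rows) in the 10 libraries (columns), coloured by log2(RPKM + 1) and grouped by the library in which each is highest, with the number of members in brackets. The L1 group is the largest, with 83 members, and the red line marks the place of the gap.

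The steps between neighbouring stages were then counted, with 2-fold on the log2(RPKM + 1) scale as the limit. With 1 library per stage, there was no replicate error to judge these differences by. From the egg to L1, 97 members (64.7%) were at least 2-fold higher in L1, against 8.95% of the genes tested, and 5 were lower, against 12.5%. The median difference L1 minus egg was 1.48 on the log2 scale for the members and -0.11 for the genes tested. From L1 to L2 the direction was the opposite. There, 99 members (66.0%) were at least 2-fold lower in L2, against 13.4% of the genes tested, and 8 were higher, against 17%. The median difference was -2.04 for the members and 0.08 for the genes tested. Over the genes tested, L2 was less like the other instars than those were like each other. Spearman's rho was 0.73 to 0.77 between L2 and each of them, against 0.84 to 0.91 among L1, L3, L4 and L5. With the male pupa, rho was 0.69 for L2, against 0.53 to 0.57 for the egg and the other instars. The part of this in the steps to and from L2, and in the members lowest in L2, was not tested.

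The later steps were smaller and mixed. In L3, 50 members were at least 2-fold higher than in L2 (14% of genes tested) and 15 lower (12.2%). In L4, 41 members were higher than in L3 (10.1%) and 34 lower (9.13%). In L5, 51 members were higher than in L4 (6.64%) and 30 lower (31.7%). The L5 library had lower values over the whole table, and the median difference L5 minus L4 was 0.20 for the members and -0.60 for the genes tested. Scaling the libraries to a common 75th percentile was tried for these steps once the data had been seen. The median difference was then 0.79 for the members and -0.16 for the genes tested, and 68 members were higher in L5 (12.2% of genes tested) and 16 lower (16.9%).

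**Figure D4:**
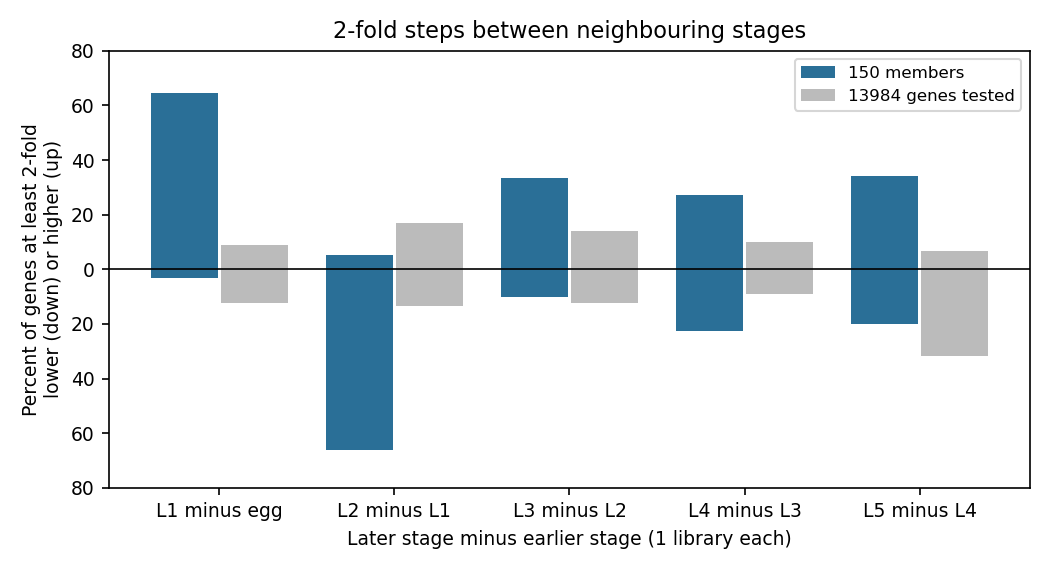
Percent of genes at least 2-fold higher (up) or lower (down) in the later of 2 neighbouring stages, for the 150 members and for the 13984 genes tested. For the members the L1 minus egg bar reaches 64.7% upward and the L2 minus L1 bar 66.0% downward.

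L1 also stood above each later instar in many members. In 43 members L1 was at least 2-fold above each of L2 to L5, which was so for 3.2% of the genes tested, and in 1 member it was at least 2-fold below each of them (2.22%). L2 lay at least 2-fold below each of the other 4 instars in 24 members (3.6%) and above each of them in 2 (7.13%). Between the ends of larval life, 78 members were at least 2-fold lower in L5 than in L1, against 24.1% of the genes tested, and 9 were higher, against 8.54%. The log2(RPKM + 1) scale compresses low values, and in egg and larvae the members had higher medians than the genes tested. With a pseudocount of 0.1 the members stayed at 78 and 9, while the genes tested moved to 31% and 11.9%. The steps between neighbouring stages are not given at that pseudocount.

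A straight trend over the 5 instars was tested with limma, in which the spread is the departure from a line. No member passed an adjusted p of 0.05, and neither did any of the 13984 genes (0%). At an unadjusted p under 0.05 (limma) there were 2 members with a positive and 9 with a negative slope. Of the 13984 genes tested, 1067 had such a p, both directions together. Their split by direction is not given, so the 2 and the 9 describe the members alone. The smallest adjusted p of a member was 0.571 (limma). The steepest negative slopes were those of RR48_09635 and RR48_14380. RR48_09635 had 18247 RPKM for L1, 382 for L2, 415 for L3, 140 for L4 and 250 for L5, and a slope of -1.38 per instar on the log2 scale (standard error 0.49, limma adjusted p = 0.619). For RR48_14380, whose values are given above, the slope was -1.38 (standard error 0.31, limma adjusted p = 0.571). Both profiles were a single high value in L1 followed by much lower ones.

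The steepest positive slopes had another shape, with low values in L1 and L2 and high ones in L3 to L5. RR48_03925 had 98.8 RPKM for L1, 155 for L2, 1054 for L3, 802 for L4 and 943 for L5 (slope 0.88, standard error 0.25, limma adjusted p = 0.589). RR48_14862 had 173 RPKM for L1, 117 for L2, 969 for L3, 585 for L4 and 1470 for L5 (slope 0.85, standard error 0.25, limma adjusted p = 0.616). The median slope of the members was -0.16, and that of the genes tested -0.06. Without L1 the median slope of the members was 0.28 and that of the genes tested -0.13, so the sign for the members depended on 1 library.

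Larvae were next compared with the egg. In 12 members all 5 larval values lay at least 2-fold above the egg (1.63% of genes tested), and in 2 members all lay at least 2-fold below it (3.91%). With a pseudocount of 0.1 there were 13 members above (2.87%) and 2 below (4.95%). RR48_11974 had the largest difference. It had 5671 RPKM for L1, 4576 for L2, 14644 for L3, 2894 for L4 and 5754 for L5, against 115 for the egg, a mean difference of 5.63 on the log2 scale. RR48_09634 had 4870 RPKM for L1, 2446 for L2, 1113 for L3, 3683 for L4 and 11960 for L5, against 125 for the egg (4.83).

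The 2 members below the egg in all instars were RR48_13678 and RR48_12024. RR48_13678 had 759 RPKM for L1, 393 for L2, 1465 for L3, 59.8 for L4 and 192 for L5, against 3103 for the egg (-3.15). RR48_12024 had 65.7 RPKM for L1, 12.6 for L2, 37.9 for L3, 19.6 for L4 and 11.8 for L5, against 193 for the egg (-2.97). The larval values of these genes did not overlap the egg value, which the way they were chosen required. There was 1 egg library. Over all members the median of larvae minus egg was 0.31, and over the genes tested -0.02.

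Pupae and adults still had reads on most members. The residual level was low: as a share of the mean over egg and larvae, the median member was at 0.133% for the female pupa, 0.168% for the male pupa, 0.0320% for the female adult and 0.280% for the male adult. Members listed at 0 numbered 31 for the female pupa, 17 for the male pupa, 50 for the female adult and 13 for the male adult, and 2 were at 0 in all 4. A value of 0 is compatible with as many as 3 reads by counting error alone, which for the median member amounts to at most 0.178 RPKM in these libraries. At most 3 reads fell on 67 members for the female pupa, 39 for the male pupa, 80 for the female adult and 36 for the male adult. Fewer than 1 RPKM in all 4 libraries was found for 62 members, and at least 10 RPKM in at least 1 of them for 14. The shares of all genes at 0 and at these limits are not given. The counts therefore describe the members alone, which were chosen by these same values.

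By the mean over pupae and adults, the highest residual levels were those of RR48_04387 and RR48_06284. RR48_04387 had 825 to 3440 RPKM in egg and larvae, and then 104 for the female pupa, 15.0 for the male pupa, 5.58 for the female adult and 99.7 for the male adult, so the sex with the higher value was not the same in pupa and adult. RR48_06284 had 344 to 744 RPKM in egg and larvae, and 11.9 for the female pupa, 23.8 for the male pupa, 5.70 for the female adult and 72.4 for the male adult. Both rested on at least 80 reads in each of these 4 libraries.

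The male adult was the most frequent site of the residual RNA. Of the 148 members above 0 in a pupa or an adult, 67 were highest in the male adult (20.7% of genes tested) and 32 in the male pupa (22.6%). The female pupa was highest for 31 (38.1%) and the female adult for 18 (18.6%). Between the adults, 10 members were at least 2-fold higher in the female (11.3% of genes tested) and 45 lower (19.6%). Between the pupae, 11 members were higher in the female (13.8%) and 15 lower (16.5%). In both stages together, 2 members were at least 2-fold higher in females (3.05%) and 10 lower (6.73%). With 1 library per sex and stage none of this was tested, and the log2(RPKM + 1) scale compresses values under 1 RPKM: with a pseudocount of 0.1 there were 7 members higher in females (4.38% of genes tested) and 36 lower (10.1%).

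RR48_05987 and RR48_01100 were the 2 members higher in females. RR48_05987 had 12.7 RPKM for the female pupa and 5.25 for the female adult, against 0.975 for the male pupa and 0.599 for the male adult. RR48_01100 had 8.95 RPKM for the female pupa and 7.14 for the female adult, against 0.427 for the male pupa and 2.04 for the male adult. Both genes were named for this difference between the sexes. The largest differences in the other direction were those of RR48_09636 and RR48_05555. RR48_09636 had 0.0676 RPKM (1 read) for the female pupa and 0 for the female adult, against 2.40 (36 reads) for the male pupa and 34.0 (385 reads) for the male adult. RR48_05555 had 0.0502 RPKM (1 read) and 0 in the same female libraries, against 3.02 (61 reads) for the male pupa and 10.6 (162 reads) for the male adult.

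Adults and pupae, the last stages, were compared with limma, with a female and a male library in each. No member and none of the 13984 genes (0%) passed an adjusted p of 0.05 (limma). At an unadjusted p under 0.05 (limma) there were 6 members with a higher and 4 with a lower value in adults. Of the 13984 genes tested, 2706 had such a p, both directions together, and their split by direction is not given. An exact permutation test of 2 against 2 libraries cannot go below p = 0.333. The median difference adults minus pupae was 0.05 for the members and -0.33 for the genes tested, and without the male adult it was -0.14 for the members and -0.43 for the genes tested. In 4 members both adults lay at least 2-fold above both pupae (7.49% of genes tested), and in 4 at least 2-fold below (9.28%). However, 62 members were under 1 RPKM in all 4 libraries, and such genes cannot differ by 2-fold on the log2(RPKM + 1) scale. The shares of members and of genes tested are therefore not on an equal footing. With a pseudocount of 0.1 there were 8 members above (8.67%) and 10 below (11%).

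RR48_00693 had the largest positive difference, with 7.62 RPKM for the female adult and 34.1 for the male adult, against 0.161 for the female pupa and 2.31 for the male pupa (3.15 on the log2 scale, standard error 1.00, limma adjusted p = 0.225). RR48_12124 had 4.86 and 7.85 RPKM in the female and male adult, against 0.539 and 0.629 in the female and male pupa (2.19, standard error 0.47, limma adjusted p = 0.154). RR48_02075 had the largest negative one, with 1.56 RPKM for the female adult and 2.51 for the male adult, against 9.66 for the female pupa and 93.5 for the male pupa (-3.40, standard error 1.20, limma adjusted p = 0.251). RR48_13951 had 0.689 and 0.857 RPKM in the female and male adult, against 10.1 and 8.22 in the female and male pupa (-2.52, standard error 0.46, limma adjusted p = 0.134). These 4 genes were named for their large differences, and their adult and pupal levels lay far below those of egg and larvae.

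Members often carried neighbouring locus tags, which the rule did not use. Of the 150, 43 (28.7%) had another member at the next or previous tag, whereas 1.85% of all 15285 genes had a member there. They formed 17 runs of consecutive tags, 12 of them pairs, and the genes of every run also stood in adjacent rows of the table. In 7 of the 17 runs all genes were highest in the same library. That library was L1, except in RR48_02918 to RR48_02919, where it was L3. Since 83 of the 150 members were highest in L1, unrelated members would often share it too. Among the 27 genes with only the 5 larvae above the gap 4 had such a neighbour (14.8%, with 0.34% of all genes next to one), and among the 29 with only egg and L1 above it 5 (17.2%, with 0.366%). Among the 25 with only pupae and adults above it 2 had one (8%, with 0.321%). The differences between these lists were not tested. Whether tags follow the order along scaffolds, and whether reads were shared between similar copies, was not tested.

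The longest run held 6 members, RR48_09633 to RR48_09638, all of them abundant. At one end, RR48_09633 had 574 RPKM for the egg, 13790 for L1, 346 for L2, 653 for L3, 1973 for L4 and 8360 for L5, and 0 for the female pupa, 0.729 for the male pupa, 0 for the female adult and 9.14 for the male adult. At the other end, RR48_09638 had 1072 RPKM for the egg, 25864 for L1, 458 for L2, 1559 for L3, 790 for L4 and 5418 for L5, and 0, 1.08, 0 and 13.8 RPKM in the same later libraries. Between them RR48_09636 reached 63498 RPKM for L1, the highest value of any member in any library. In 5 of the 6 genes L1 was the highest library and in RR48_09634 it was L5.

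The 6 genes also resembled each other in later stages. In the male adult they had between 2.66 and 34.0 RPKM, in the male pupa between 0.223 and 2.40, and in both female libraries at most 0.223. The median Pearson correlation between neighbours of the run over egg and larvae was 0.86 on the log2 scale. Many members shared a peak in L1, and correlations between members that are not neighbours are not given. The value therefore does not show that the run was more alike than other members. With gene length expressed in the common steps recovered from the values, whose size in base pairs is not given, the 6 genes had 103 to 216 steps, below the median of 327 over all genes. The pattern went on beyond the run in genes that missed the rule by 1 library, which were looked up after the run was seen. RR48_09639 had 18967 RPKM for L1 and 7766 for L5 but 13.3 for the egg, and RR48_09640 had 5789 for L1 and 5770 for L5 but 15.2 for L2. On either side, RR48_09631 and RR48_09641 had no such pattern, with 10.9 to 163 RPKM in RR48_09631 and 42.2 to 114 in RR48_09641 over all 10 libraries.

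**Figure D5:**
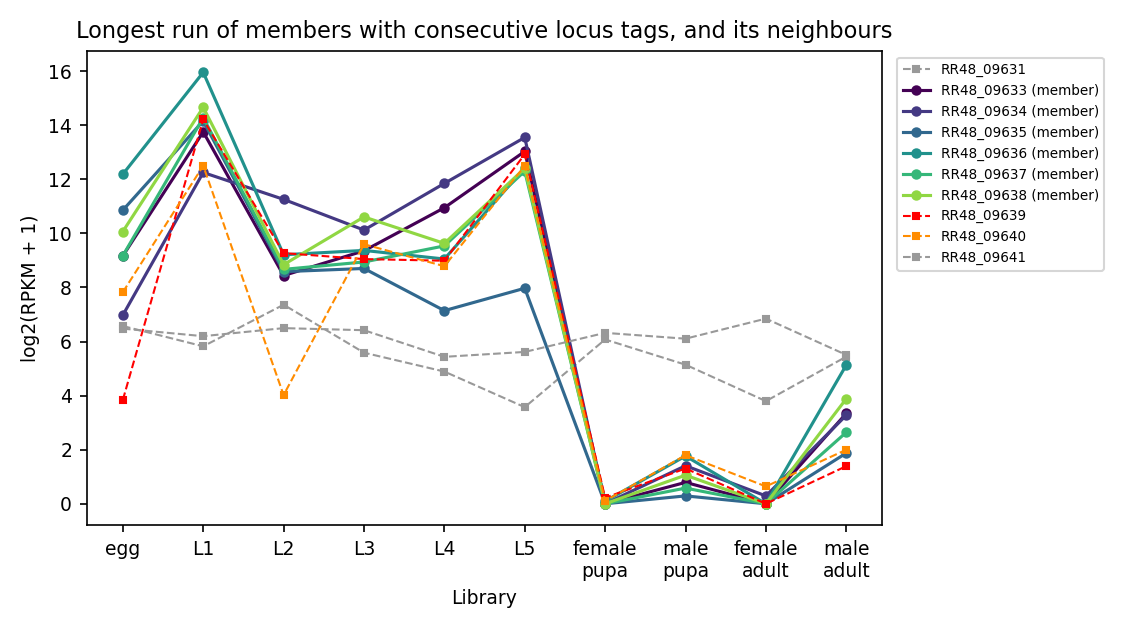
Levels of the 6 members RR48_09633 to RR48_09638 (solid lines) and of the neighbouring tags (dashed lines) in the 10 libraries, as log2(RPKM + 1). The members peak in L1 or L5 and lie near 0 in both female libraries, RR48_09639 is low in the egg and RR48_09640 in L2.

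The other 4 runs of at least 3 members differed among themselves. RR48_04160 to RR48_04163 held 4 members with means over egg and larvae of 16.3 to 859 RPKM, of which 3 were highest in L5 and 1 in L1, and a median correlation between neighbours of 0.50. RR48_14416 to RR48_14418 held 3 members, all highest in L1, with a median correlation between neighbours of 0.86. In RR48_03923 to RR48_03925 the 3 members were highest in 3 different instars and had means of 308 to 540 RPKM, with a median correlation of 0.0016. The 3 members of RR48_04435 to RR48_04437 were highest in L3 or L1 and had a median correlation of -0.049. Neighbouring members thus shared the presence in egg and larvae, which the rule fixed, but not always the instar of their peak. The median length of the members was 284 steps, 0.869 times the median of the table.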

How the data were processed

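Transcriptomes of Papilio machaon were sequenced by the authors as paired-end reads (Illumina) and mapped to their genome assembly. The submitters' processing notes list TopHat 1.0.12 and 1.4.1, and the counting tool is not given in the sources used here. The authors deposited RPKM values. All 10 columns were matched to libraries by name (0 were left over). Members and lists were chosen with earlier results of these data known. Reads behind RPKM were recovered as whole numbers (tolerance 0.001) for all 15285 genes, and entered no count model. They are the smallest whole numbers that fit, so a factor common to all libraries of a gene can be missing. The gene length came to a whole number of steps (within 0.05) for 15221 genes. The libraries' scaling denominators differed by up to 1.48 times. Tests used limma 3.58.1 (R 4.3.3, eBayes with trend, Benjamini-Hochberg adjustment) on log2(RPKM + 1), a scale that understates the change of low genes, with genes averaging under 1 RPKM left out. The scripts were tested on simulated data. Python 3.11.15, numpy 2.4.6 and pandas 2.3.3 were used. Genes named were at most 2 per direction of each comparison: the largest gaps, the genes at the edge of the list, the highest means, the largest differences or slopes, the highest residual levels and the ends of the longest run. The narrowest range and the genes beside the run were added after their values were seen. The gene lists by function could not be applied, since no tag matched a name. Alternatives were a pseudocount of 0.1, 75th percentile scaling, other thresholds and filters, sex as a block, and leaving out each library.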

Additional observations from a re-analysis of the deposited data

Results flagged for a closer look

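In 15 groups of libraries examined, 3 values lay far from the rest of their group. The libraries of a group were different stages or sexes and not replicates, so no rate by chance is given. The share of the members in L1 was flagged both as RPKM and as reads, which measure nearly the same thing. The members took 25.0% of the summed RPKM in L1, against 3.31% to 11.3% in the egg and the other instars. Counted as reads they took 20.0% in L1, against 3.02% to 9.14%. The median of log2(RPKM + 1) over the 13984 genes tested was 2.98 in L5, against 3.45 to 3.68 in the egg and the other instars. Their part in the results of the members was not tested, beyond the scaling to a common 75th percentile.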

How the results depend on the processing

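With 1 library per stage, the counts above describe these libraries only, and the 3-read limit bounds low values. Of the 150 members, 119 stayed among the 150 widest gaps with a pseudocount of 0.1 and 143 with 75th percentile scaling. Leaving out 1 library kept 112 (without L2) to 145 (without L1) there and 144 to 150 among all genes passing the rule, which numbered 227 to 303. No member passed limma under any alternative. The shares of genes tested at the same setting are given in brackets. At 4-fold, larvae lay above the egg in 2 members (0.307%) and below it in 0 (0.615%). Leaving out 1 instar gave 12 to 18 above (1.78% to 3.57%) and 2 to 7 below (4.16% to 6.84%), the 7 and the 6.84% without L1. With a pseudocount of 0.1, females were higher in 7 members (4.38%) and lower in 36 (10.1%). At 4-fold with the pseudocount of 1, they were higher in 0 (0.522%) and lower in 0 (2.35%). With a pseudocount of 0.1, both adults lay above both pupae in 8 members (8.67%) and below in 10 (11%). With 75th percentile scaling, 15 members were higher in L5 than in L1 (13.1%), 5 were higher in L2 than in L1 (16%), 16 were lower in L5 than in L4 (16.9%) and 80 were highest in L1 (11.8%). With sex as a block, which pairs adult and pupa of a sex, limma called 0 members and the smallest adjusted p of a member was 0.156. The labels give no replicate numbers by which other stages could be paired.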

Other observations

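Among the 150 members, the adults of both sexes were less alike in rank than each adult and the pupa of its own sex. Spearman's rho over the members was 0.62 between female adult and female pupa and 0.62 between male adult and male pupa. It was 0.29 between female and male adult and 0.57 between female and male pupa. The pupae thus differed little in this from the pairs of one sex. Over the 13984 genes tested both pairs of one stage were the more alike, with 0.77 between the adults and 0.77 between the pupae, and 0.68 between the females and 0.63 between the males across stages. The residual levels of the members followed their levels in egg and larvae in males (rho 0.33 to 0.44) more closely than in females (0.03 to 0.20). Over the genes tested, rho was 0.51 to 0.69 in males and 0.55 to 0.68 in females. At most 3 reads fell on 67 members for the female pupa and 80 for the female adult, against 39 and 36 for the males. The shares of all genes with so few reads are not given. The part of such low values in the difference between the sexes was not tested. Within egg and larvae, L1 was closest to L5 over the members (0.82), while over the genes tested it was closest to the egg (0.90). Genes are not independent replicates in such correlations, and many of the pupal and adult values rest on 3 reads or fewer.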
